A study of Mus musculus with 2 samples.

Results

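Uterine mast cells were examined in a single-cell RNA sequencing study of whole mouse uterus. They were taken as cells in which at least 2 of Cpa3, Tpsb2, Cma1, Mcpt4, Kit, Fcer1a and Ms4a2 were detected. Cpa3, Tpsb2, Cma1 and Mcpt4 together also had to reach 5 unique molecular identifiers (UMIs, 1 per captured transcript), with no UMI of the epithelial gene Epcam. Barcodes counted as cells when 500 or more genes were detected and mitochondrial transcripts made up no more than 20% of UMIs. The rule found 90 mast cells among 8603 cells, 49 of 3653 in the control library and 41 of 4950 in the knockout library. Because expression chose these cells, the levels of those 8 genes describe the choice and are no finding.

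The control mice carried floxed alleles of Prickle1 (Prickle1 f/f), and the conditional knockout mice (cKO) carried the same alleles with Ltf-cre, a Cre recombinase under control of the lactoferrin gene. Prickle1 acts in planar cell polarity, the alignment of cells within a sheet, and lactoferrin is a secreted product of the uterine epithelium. All mice were females aged 6 months, and 3 uteri were pooled into 1 library per group. A separate genotype entry calls both samples C57BL/6J wild-type, which differs from the titles, so the groups follow the titles. With 1 library per group there is no replicate check and no test across animals. Genotype, animals and library preparation cannot be told apart, and every interval here is a 95% interval for counting error only.

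Mast cells are long-lived tissue leukocytes that mature under KIT signalling and store histamine, serotonin and proteases on a serglycin proteoglycan core in secretory granules. IgE bound to its high-affinity receptor, or ligands of Mas-related G protein-coupled receptors, trigger release of the granules and the synthesis of lipid mediators and cytokines. In mice, connective tissue mast cells are known for the chymases Cma1 and Mcpt4, the tryptases Tpsb2 and Tpsab1 and carboxypeptidase Cpa3. Mucosal mast cells are known for Mcpt1 and Mcpt2. In the uterus, mast cells are known mainly from the myometrium and the deeper stroma.

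The libraries held 45035801 UMIs in control and 57145553 in cKO. Mast cells were shallow, with a median of 1311 UMIs in control and 1998 in cKO, against 4650 and 5944 over all cells. Their median mitochondrial share was 7.46% and 8.47%, against 3.09% and 3.44% over all cells. The libraries shared 5 cell barcodes, none of them a mast cell. Ltf, the gene that drives the Cre, had 0 UMIs in the mast cells of either library. Prickle1 had 0 UMIs in control mast cells and 1 in cKO mast cells, so mast cells offered no check of the deletion at this depth.

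The label was checked against mast cell genes that the rule did not use. Il1rl1, the receptor of interleukin 33, was detected in 48 of 49 control and 38 of 41 cKO mast cells, against 4 of 233 and 2 of 123 macrophages. Hdc, which makes histamine, was detected in 32 of 49 and 32 of 41, against 6 of 233 and 8 of 123 macrophages. The 4 granule protease genes of the rule, whose levels the choice of cells set, were detected together in 42 control and 38 cKO mast cells. The 4 genes summed to 5 UMIs in the lowest control mast cell, 31 in the median and 199 in the highest. In cKO the lowest had 12, the median 53 and the highest 492. Relative to all UMIs of the cell the medians were 2.60% and 2.53%, and the cells of the libraries overlapped. At the threshold, 2 control members had 5 UMIs and 2 had 6, and 3 control cells outside it had 3 or 4. No cKO member had under 12 UMIs, and 1 cell outside the threshold had 4. In each library 1 barcode was left out for its Epcam UMIs alone.

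**Figure D1:**
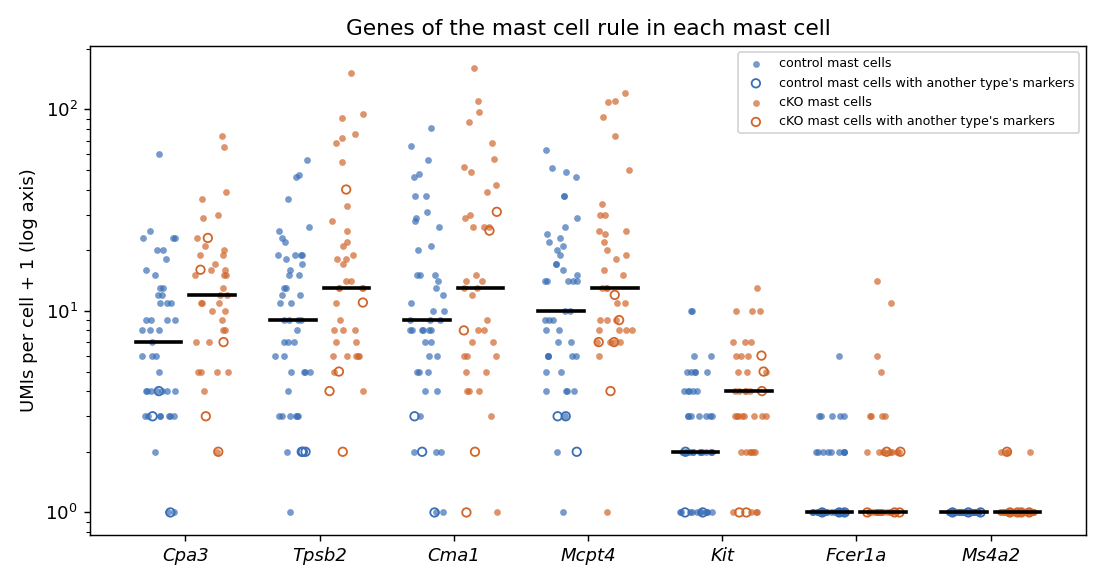
UMIs plus 1 per mast cell (log axis) for the 7 marker genes of the rule, in 49 control and 41 cKO cells. Each point is a cell, black lines are medians, and open circles are cells that also carry markers of another cell type. Fcer1a and Ms4a2 lie at 0 UMIs in the median cell of both libraries, while the 4 protease genes spread over a wide range of UMIs.

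The 7 neutrophil or eosinophil, 4 B or plasma cell, 3 mesothelial and 3 erythroid markers were at 0 in both libraries. The 7 T, NK or innate lymphoid markers summed to 0 and 2 UMIs, with 7 of 7 at 0 in control and 5 of 7 in cKO. Epithelial markers, of which the rule itself set Epcam to 0, summed to 2 UMIs in control, with 4 of 6 at 0, and to 0 in cKO. The 5 basophil markers summed to 47 and 80 UMIs, of which 41 and 68 were of Cd200r3, which mast cells also express. Mcpt8, a protease that defines basophils, had 0 UMIs in both and Prss34 had 6 in each. A few barcodes were exceptions. In control, 3 also met the macrophage rule or held at least 5 UMIs of Col1a1, Col3a1 and Dcn, and in cKO 5 did. Those barcodes are called mixed here. They held 8.23% of mast cell UMIs in control but 33.6% in cKO, where 1 alone had 17289 UMIs, of which 13 were of the 4 protease genes. The 6 stromal fibroblast markers summed to 33 UMIs in control and 424 in cKO, and to 0 and 2 without the mixed barcodes. The 6 macrophage markers went from sums of 15 and 50 to 4 and 1, and the 6 dendritic cell markers from 28 and 18 to 0 and 0. The 5 smooth muscle markers summed to 7 UMIs in 5 control cells and 61 in 13 cKO cells, and to 7 and 25 without the mixed barcodes, with 3 of 5 at 0 in control and 1 of 5 in cKO. The 4 endothelial markers summed to 0 and 5, and to 0 and 4, with 4 of 4 and 2 of 4 at 0. The part of these transcripts in the differences between the libraries was not tested beyond leaving out the mixed barcodes.

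Mast cells made up 1.34% of control cells (interval 0.994% to 1.77%) and 0.828% of cKO cells (0.595% to 1.12%). The cKO share was 0.617 times the control share (0.398 to 0.954). Without the mixed barcodes the ratio was 0.578 (0.363 to 0.913). Of mast cells and other barcodes with a UMI of the leukocyte gene Ptprc, mast cells were 6.17% and 2.29%, a ratio of 0.371 (0.239 to 0.573). A Ptprc UMI was detected in 30 of 49 control and 24 of 41 cKO mast cells, which were 3.87% and 1.35% of all barcodes with one, a ratio of 0.349 (0.196 to 0.618), in a setting added after seeing the data. In the same libraries macrophages, chosen by C1q and related genes, made up 6.38% and 2.48%, and lymphoid cells, chosen by T and NK cell genes, made up 5.64% and 14.4%. A share depends on every other cell in the library, and no spread between animals stands behind these values.

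The direction of this difference turned with the minimum number of detected genes. At 1000 genes only 7 of 2718 control and 18 of 4010 cKO cells were mast cells, a ratio of 1.74 (0.695 to 4.94). Control mast cells had fewer detected genes: 42 of the 49 had 500 to 999 genes, against 23 of 41 in cKO. Below the limit of 500 genes, 68 control and 33 cKO barcodes met the marker part of the rule, with medians of 433 and 410 UMIs. At any gene count there were 117 and 74 such barcodes, or 2.60 and 1.29 per 1000000 library UMIs, a ratio of 0.498 (0.367 to 0.673). Barcodes under 500 genes held 57.6% of all UMIs of the 4 protease genes in control and 41.7% in cKO. Whether these barcodes were cells, broken cells or droplets with free RNA was not tested.

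**Figure D2:**
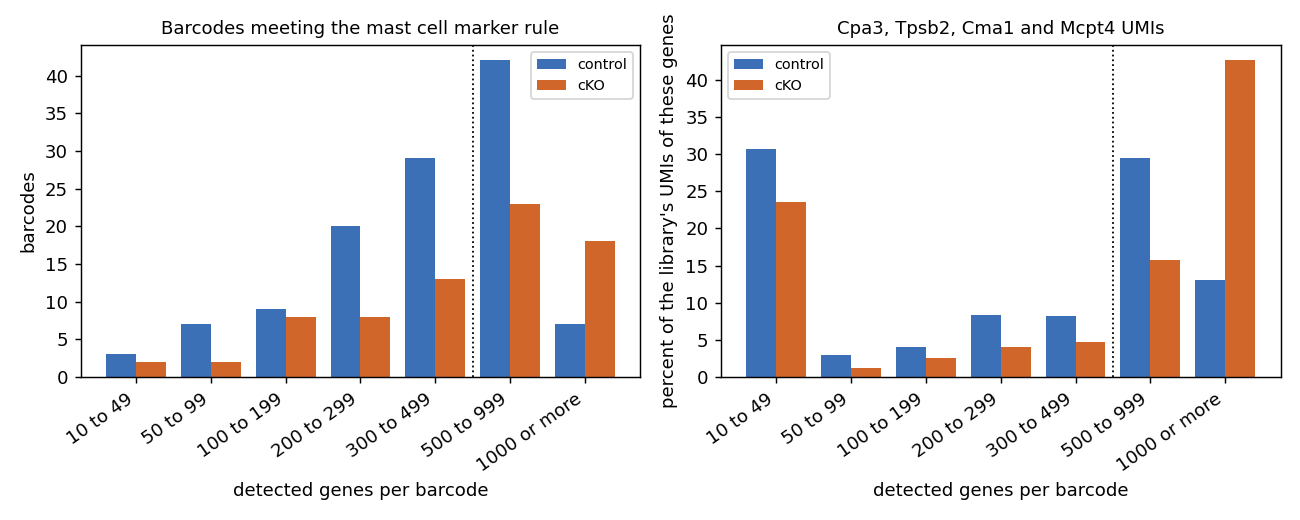
Barcodes that met the mast cell marker rule (left) and the percent of each library's UMIs of Cpa3, Tpsb2, Cma1 and Mcpt4 (right), by detected genes per barcode. The dotted line marks the limit of 500 genes, and control exceeds cKO in every bin of the left panel except 1000 genes or more, where it has 7 barcodes against 18.

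The tryptase gene Tpsab1, which the rule did not use, was near 0 in other cells. In control it stood at 1410 CPM (counts per 1000000 of the summed UMIs) in mast cells, 106 in barcodes of at most 100 UMIs and 0.399 in all other cells. In cKO these were 1569, 68.3 and 0.208. A Tpsab1 UMI was found in 40 of 49 control and 34 of 41 cKO mast cells, against 1 of 233 and 0 of 123 macrophages. The macrophages were deeper, with medians of 9325 and 11128 UMIs.

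The proteases of the rule lie at 3 loci. On GRCm38 (GENCODE M21), Cpa3, the gene of carboxypeptidase A3, spans chr3:20215620-20242181 on the minus strand. Tpsb2 spans chr17:25366305-25369098 and the neighbouring tryptase gene Tpsab1 chr17:25343245-25345562. Cma1 (chr14:55941451-55944675) and Mcpt4 (chr14:56059629-56062313) belong to a cluster of 15 protein-coding chymase, cathepsin G and granzyme genes over 321 kb. Of these genes, Cma1 had 733 UMIs in control and 1087 in cKO, Mcpt4 had 700 and 987, and Gzmb, at the far end (chr14:56258838-56262260), had 141 and 241. Mcpt2 had 0 and 56 UMIs, all in 1 cell described further on. Cma2 had 2 and 0 UMIs and Ctsg 0 and 1. Mcpt1, Mcpt9, Mcpt8, Gzme, Gzmd, Gzmg, Gzmn, Gzmf and Gzmc had 0 in both. By the limit of 3 counts, a gene at 0 allows a share of cells with a UMI of up to 6.12% in control and 7.32% in cKO. The chymase genes are close paralogs, and how reads shared between them were counted is not given in the sources used here.

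**Figure D3:**
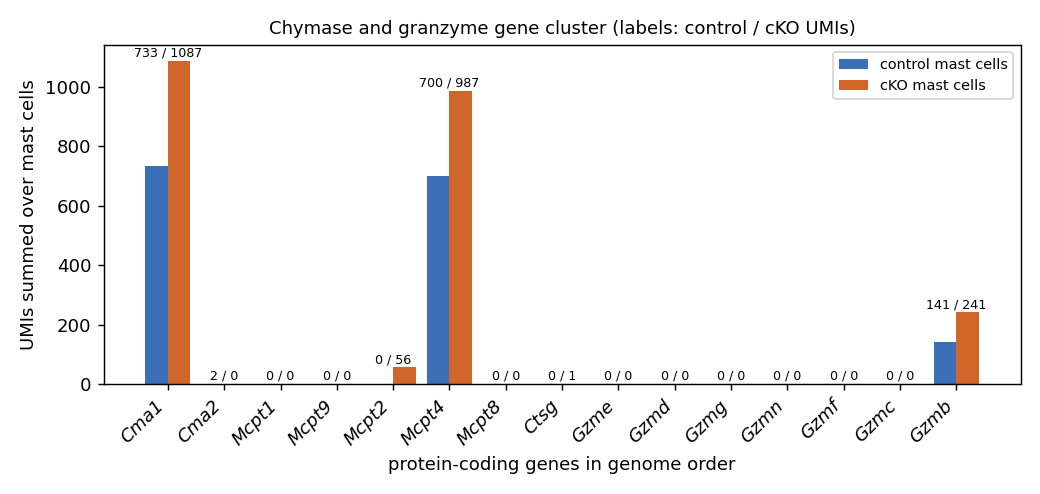
UMIs summed over control and cKO mast cells for the 15 protein-coding genes of the chymase and granzyme cluster, in genome order. Cma1, Mcpt4 and Gzmb are the highest, Mcpt2 has 56 UMIs in cKO, and 9 genes are at 0 in both libraries.

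The windows before Mcpt4, a gene of the rule, and Mcpt1, with 0 UMIs in mast cells, are alike. The 250 bases before the annotated start are therefore shown for Cpa3, Cma1 and Mcpt4, which were expressed, and for the cluster member Mcpt1. They are RefSeq sequences on GRCm38.p6, 5′ to 3′ on the strand of the gene, and capitals mark GATAA or its reverse complement TTATC, the letters read by GATA factors such as GATA2. They lie at chr3:20242182-20242431 (minus strand, Cpa3), chr14:55944676-55944925 (minus, Cma1), chr14:56062311-56062560 (minus, Mcpt4) and chr14:56017714-56017963 (plus, Mcpt1).
Cpa3: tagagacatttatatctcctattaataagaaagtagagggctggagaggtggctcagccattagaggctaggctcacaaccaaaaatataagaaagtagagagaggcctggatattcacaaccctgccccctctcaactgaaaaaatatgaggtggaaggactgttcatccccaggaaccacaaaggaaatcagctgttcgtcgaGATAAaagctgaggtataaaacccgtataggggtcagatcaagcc
Cma1: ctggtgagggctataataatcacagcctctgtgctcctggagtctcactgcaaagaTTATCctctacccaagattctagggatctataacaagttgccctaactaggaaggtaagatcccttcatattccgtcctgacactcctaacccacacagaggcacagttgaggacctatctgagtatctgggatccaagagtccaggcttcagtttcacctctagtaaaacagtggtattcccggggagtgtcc
Mcpt4: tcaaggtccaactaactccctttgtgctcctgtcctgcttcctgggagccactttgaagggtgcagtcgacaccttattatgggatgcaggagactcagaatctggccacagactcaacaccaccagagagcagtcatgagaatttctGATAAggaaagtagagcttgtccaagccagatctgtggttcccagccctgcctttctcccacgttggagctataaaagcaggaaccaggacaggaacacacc
Mcpt1: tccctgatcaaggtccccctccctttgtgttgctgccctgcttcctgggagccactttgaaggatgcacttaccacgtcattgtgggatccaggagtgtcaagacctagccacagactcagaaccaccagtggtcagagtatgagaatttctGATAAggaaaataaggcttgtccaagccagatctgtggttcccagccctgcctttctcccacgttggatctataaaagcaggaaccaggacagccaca
Each window holds 1 GATAA match on either strand, which begins 45, 194, 102 and 98 bases before the start. Among 32851 windows of that length, 22.6% held a match. Of 8 further genes searched, Slc18a2 and Fcer1a held 1 match and Ms4a2 held 3, while Hdc, Tph1, Mrgprb1, Gzmb and Mcpt8 held none. In a global alignment the Mcpt4 and Mcpt1 windows were identical at 81.9% of positions, and the 12 letters before and 5 after GATAA were the same in both. Mcpt1 was detected in 0 of 90 mast cells, while Mcpt4 was one of the genes by which the cells were chosen. The Mcpt4 and Cma1 windows, both of expressed genes, were identical at 54.1% of positions. A match is a description of letters and shows no binding. Of the 20 genes highest in mast cells that are described next, 16 had a promoter in the table and 7 (43.8%) held GATAA, against 25.5% of 27025 genes.

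Beyond the rule, mast cells carried genes of amine, lipid and receptor biology. Of 726 genes with at least 50 UMIs in the mast cells of both libraries together, 111 (15.3%) were at least 4-fold higher than in all other cells of the same library, in both libraries. Since the rule picked these cells by expression, the count is a description. The 20 genes with the highest ratios were led by Mrgprb1, a receptor of the Mas-related family, at 1260 CPM in control mast cells and 1114 in cKO mast cells, against 0.0532 and 0.0189 in other cells. A Mrgprb1 UMI was found in 34 of 49 and 24 of 41 mast cells and in 0 of 233 and 0 of 123 macrophages. Mrgprb2, the receptor of basic secretagogues, was sparse, with 5 and 11 UMIs.

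Enzymes of the stored amines were among the 20. Hdc stood at 1273 CPM in control and 2183 in cKO, against 6.49 and 4.42 in other cells. Tph1, the first enzyme of serotonin synthesis, stood at 1784 and 1304 CPM. Slc18a2, the transporter that loads amines into vesicles, stood at 1560 and 1114 CPM. Alox5, which starts leukotriene synthesis, stood at 299 and 280 CPM. Cyp11a1, the side-chain cleavage enzyme of steroid synthesis, stood at 799 CPM in control and 440 in cKO, against 0.266 and 0.341 in other cells, and was detected in 24 and 22 mast cells.

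The other leading genes included Tpsab1, Rgs13, a regulator of G protein signalling, Adora3, the adenosine A3 receptor, and the receptors Cd200r3 and Cd200r4. Csf2rb2, a beta chain used by the interleukin 3 receptor, Sla, Tespa1, Mctp1, Ap1s3 and Car8 also belonged to them, as did the transporter Slco2b1, the heparan sulfotransferase Hs6st2 and Gzmb. Gzmb was detected in 29 of 49 control and 26 of 41 cKO mast cells. It stood at 1759 CPM in control and 1827 in cKO mast cells, against 429 and 93.6 in lymphoid cells, which also carry it. All 20 were present in both libraries, in 10 to 48 cells each.

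**Figure D4:**
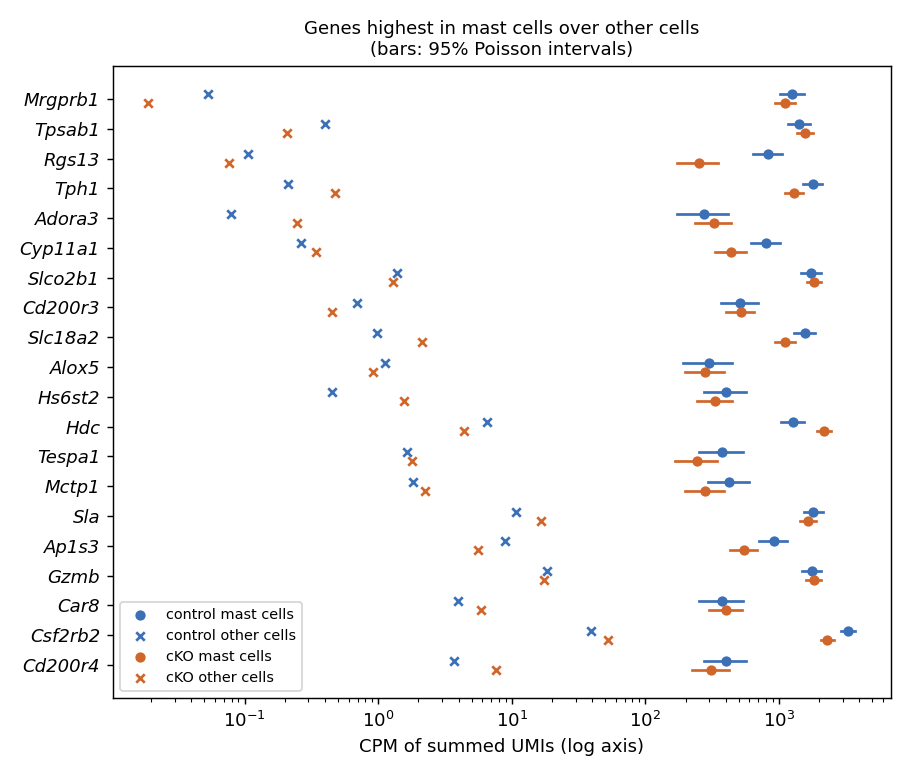
CPM (log axis) of the 20 genes with the highest ratio of mast cells to other cells, in mast cells (points with 95% Poisson intervals) and in all other cells (crosses), for control and cKO. Points and crosses do not meet for any gene, and Hdc and Rgs13 differ between the libraries in opposite directions.

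Transcripts of the IgE receptor were thin. Fcer1a and Ms4a2 are genes of the rule, so their detection against other cells describes the choice of cells and is no finding. Fcer1a, the chain that binds IgE, was detected in 15 of 49 control and 19 of 41 cKO mast cells and in 0 of 233 and 0 of 123 macrophages. Ms4a2, the beta chain, was detected in 0 and 5 cells. With each cell thinned to 1000 UMIs, which left 43 control and 39 cKO mast cells, Fcer1a was detected in 8 and 10 and Ms4a2 in 0 and 5. Fcer1g, the gamma chain that several receptors share, was detected in 32 and 31 cells. Gata2, a transcription factor of the mast cell lineage, was detected in 20 and 26 mast cells, and Il1rl1 in 48 and 38.

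One cKO mast cell differed from all others in its chymases, and it was singled out after its values were seen. It held 56 UMIs of Mcpt2, a mucosal mast cell chymase, and no other mast cell of either library held any. The cell had 4982 UMIs and 1930 genes and was not a mixed barcode. It had 0 UMIs of Mcpt4, which was detected in 40 of 40 other cKO mast cells and in 48 of 49 control mast cells. It also had 0 UMIs of Tpsab1, Mrgprb1 and Mrgprb2, which were detected in 34, 24 and 8 of the 40 others. Cma1 (96 UMIs), Tpsb2 (74), Cpa3 (29), Gzmb (26), Tph1 (17) and Kit (9) were present. With 87 UMIs it held 30.2% of the Hdc UMIs of cKO mast cells, or 175 per 10000 UMIs, against at most 118 in the 40 others. Itgae, an integrin known from mucosal mast cells, was at 0 in all 41. No second such cell was found, so nothing can be said of its frequency beyond 1 of 90.

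Between the libraries, Rgs13, Cyb5a and Taldo1 were lower in cKO mast cells and Slc7a11 higher, each by over 2-fold with and without the mixed barcodes and with cells thinned to 1000 UMIs. Of the 726 genes, 59 (8.13%) were at least 2-fold higher in cKO mast cells and 30 (4.13%) at least 2-fold lower. With the mixed barcodes left out 520 genes reached 50 UMIs, of which 13 (2.5%) were higher and 14 (2.69%) lower. For 52 of the 59 higher genes, the mixed barcodes held over 50% of the cKO UMIs, and for 25 a single cell held at least 50%. Of the 30 lower genes, the mixed barcodes held over 50% of the control UMIs for 2, and a single cell at least 50% for 3. Without the mixed barcodes 8 of the 59 and 13 of the 30 stayed past 2-fold, with no group taken below 3 UMIs. Of these, 2 higher and 11 lower genes still reached 50 UMIs.

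Of the 12 granule proteases listed, 7 could be compared, 1 was past 2-fold higher and 0 lower, with and without the mixed barcodes. Over all genes 8.13% were higher and 4.13% lower, or 2.5% and 2.69% without the mixed barcodes. The 1 was Mcpt2, from the single cell above. The median log2 ratio of cKO to control was 0.05, or 0.43 without the mixed barcodes, and 4 of the 7 are genes of the rule. Of the genes outside the rule, Tpsab1 had a ratio of 1.11 (0.881 to 1.41) and Gzmb 1.04 (0.840 to 1.29), or 1.49 and 1.35 without the mixed barcodes. Tpsb2, Cma1, Cpa3 and Mcpt4 were held to the same limit in both libraries, so their ratios describe cells chosen by these genes. They were 1.04, 0.901, 0.900 and 0.857, or 1.36, 1.18, 1.17 and 1.15 without the mixed barcodes.

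Of the 13 proteoglycan and storage genes, 7 could be compared, 0 were higher and 2 lower, or 0 and 1 of 7 without the mixed barcodes. Over all 726 genes 8.13% were higher and 4.13% lower, or 2.5% and 2.69% without the mixed barcodes. Serpinb1a, an inhibitor of granule serine proteases, stood at 711 CPM in control and 250 in cKO, 2.84-fold lower, and was detected in 23 of 49 and 15 of 41 cells. Rab27b, a small GTPase of granule transport, stood at 1385 and 622 CPM, 2.23-fold lower, or a ratio of 0.596 without the mixed barcodes. Srgn, the core of the granule proteoglycan, had a ratio of 0.688, or 0.890 without them. The list's median log2 ratio was -0.49, or -0.12 without them.

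Of the 11 mediator genes, 5 could be compared, 0 were higher and 1 lower, or 1 and 0 of 5 without the mixed barcodes. Over all genes 4.13% were lower, and 2.5% were higher without the mixed barcodes. Hdc had 102 UMIs in control and 288 in cKO, a ratio of 1.72 (1.36 to 2.17), which became 2.36 without the mixed barcodes. Per 10000 UMIs the cells ran from 0 to a median of 8.47 and a maximum of 42.9 in control, and from 0 to 15.2 and 175 in cKO. The cells of the libraries overlapped widely. Without the cKO cell with Mcpt2, a setting added after seeing the data, the Hdc ratio was 1.24 (0.976 to 1.59), and 1.73 when the mixed barcodes were left out as well. Hpgds, which makes prostaglandin D2, stood at 474 and 220 CPM, 2.16-fold lower, with a ratio of 0.619 without the mixed barcodes. Tph1 had a ratio of 0.731 (0.582 to 0.919), 0.969 (0.766 to 1.23) without them and 0.675 with every cell weighted equally. It was detected in 42 of 49 control and 27 of 41 cKO cells, or 33 of 43 and 20 of 39 when thinned, with medians of 18.0 and 8.20 per 10000 UMIs.

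Of the 16 genes of the IgE receptor and its signalling, 7 could be compared, 0 were higher and 2 lower, against 4.13% lower over all genes. Without the mixed barcodes 0 were higher and 1 lower of 6, against 2.5% and 2.69% of all genes. Rac2, a GTPase of granule release, stood at 437 and 190 CPM, 2.30-fold lower, and at a ratio of 0.480 without the mixed barcodes. Lyn, the kinase next to the receptor, stood at 512 and 243 CPM, 2.11-fold lower, or 0.575. Of 9 other mast cell receptors, among them the rule gene Kit, and 5 transcription factors that could be compared, none was past 2-fold in either direction. Over all genes 8.13% were higher and 4.13% lower, so a list this small may hold none. Kit stood at 1148 and 1008 CPM, Il1rl1 at 4317 and 3426 CPM, and Gata2 at 649 and 629 CPM.

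Some cytokine genes were detected in many mast cells and others in few. Of 22 listed, 7 could be compared, 3 were past 2-fold higher, against 8.13% of all genes, and 0 lower. Without the mixed barcodes 0 were higher and 1 lower of 5, against 2.5% and 2.69% of all genes, and the median log2 ratio went from 0.18 to -0.25. The 1 was the chemokine Cxcl2, with 75 UMIs in 8 control cells and 140 in 9 cKO cells, a ratio of 1.13 (0.851 to 1.52). It had 55 and 22 UMIs with the mixed barcodes left out, a ratio of 0.336 (0.195 to 0.560). The 3 were Csf1, a macrophage growth factor, and the chemokines Ccl2 and Ccl4. Ccl2 was detected in 24 of 49 control and 30 of 41 cKO mast cells, at 811 and 2115 CPM, a ratio of 2.61 that became 1.76 without the mixed barcodes. Csf1 had 7 and 58 UMIs, and 7 and 6 without them, so its direction rested on the mixed barcodes. Ccl4 came from 2 control and 5 cKO cells, with 16 and 72 UMIs, or 1 and 5 without the mixed barcodes. Ccl7 stood at 2957 and 3252 CPM, with 42.2% of its cKO UMIs in 1 cell. Il6 stood at 1572 and 879 CPM, a ratio of 0.559, with 31.7% of control UMIs in 1 cell.

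Il4, the cytokine of type 2 immunity (chr11:53602982-53618669), had 1 UMI in control and 25 in cKO mast cells. The 25 came from 6 cells, and 15 from a single cell of 6960 UMIs that also held 39 UMIs of Mrgprb1, 29 of Il6 and 3 of Il13. The other 5 cells held 10, and the ratio of 15.2 has an interval of 2.49 to 624. Il4 was named because of this interval and passed the filters through cKO, so the interval describes the choice. In other cells Il4 stood at 0.0266 and 0.0758 CPM.

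Summed over the list of interferon-response genes, CPM were lower in cKO than in control, both in mast cells and in all other cells. Isg15, a ubiquitin-like protein induced by interferon, was found in 20 control cells with 44 UMIs and in 8 cKO cells with 13, 5.57-fold lower, and a ratio of 0.247 without the mixed barcodes. Rsad2, the antiviral enzyme viperin, had 114 and 13 UMIs, but 80.7% of the control UMIs lay in 1 cell, and its ratio was 0.440 without the mixed barcodes. Both genes that could be compared, of 33 analysed, were past 2-fold lower, against 4.13% of all genes. Without the mixed barcodes 0 of the 33 reached 50 UMIs. Summed over the 33 genes the list stood at 3955 and 561 CPM in mast cells, or 1264 and 514 CPM without the mixed barcodes. In all other cells it stood at 4584 and 858 CPM, and in barcodes of at most 100 UMIs at 3189 and 720 CPM. Free RNA was also subtracted at an assumed 10% of mast cell UMIs, a share that was not estimated from the data. The log2 ratio of Isg15 then went from -2.44 to -2.38 and that of Rsad2 from -3.80 to -3.81. The part of free RNA in these differences was not tested.

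The genes named for the widest margin on the lower side were led by Rsad2, Taldo1, an enzyme of the pentose phosphate pathway, and Cyb5a, cytochrome b5. As they were picked by their intervals in these data, the ratios and intervals describe the choice. Taldo1 stood at 674 CPM in control and 167 in cKO, 4.04-fold lower, in 23 and 16 cells, with a ratio of 0.319 without the mixed barcodes. Cyb5a stood at 973 and 280 CPM, 3.47-fold lower, in 34 and 15 cells, with a ratio of 0.358 without the mixed barcodes. With cells thinned to 1000 UMIs it was detected in 28 of 43 control and 11 of 39 cKO cells. In other cells it stood at 138 and 141 CPM, and in macrophages alone at 327 and 211 CPM. Rgs13, among the 20 genes highest in mast cells, stood at 824 and 250 CPM, 3.29-fold lower (ratio 0.304, 0.194 to 0.468). It was detected in 30 of 49 control and 17 of 41 cKO cells, and its ratio was 0.388 without the mixed barcodes. Thinned to 1000 UMIs, 23 of 43 and 8 of 39 cells had a UMI of it. Akap13 was 3.11-fold lower with 60% of its control UMIs in 1 cell, and Ikzf1, a lymphoid and myeloid transcription factor, had 22 and 7 UMIs. Cd274 (the ligand PD-L1), Lgals3 (galectin 3) and Serpinb1a were 2.87-fold, 2.44-fold and 2.84-fold lower, with ratios of 0.489, 0.470 and 0.486 without the mixed barcodes. Lgals3 was also lower in all other cells, at 1273 and 404 CPM, and Taldo1 in macrophages, at 681 and 383 CPM.

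Fth1, the ferritin heavy chain that stores iron, was the most abundant of them. It stood at 42499 CPM in control mast cells (3406 UMIs) and 21339 in cKO mast cells (2815 UMIs), 1.99-fold lower and so just short of 2-fold. Per 10000 UMIs control cells ran from 21.2 to a median of 272 and a maximum of 1510, and cKO cells from 0 to 81.1 and 1394. The cells overlapped, with the cKO median below the control median. The ratio was 0.502 (0.477 to 0.528), 0.512 without the mixed barcodes and 0.539 with every cell weighted equally, against 0.895 in all other cells. In macrophages alone Fth1 stood at 40861 CPM in control and 29721 in cKO. Fth1 has processed copies in the genome, which makes its counts uncertain.

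On the higher side the named genes were Thbs2, Selenop, Dbi, Il4, Atxn7, Mxd1, Slc7a11, Sod2, Ccl4 and Mtss1. These were picked by their intervals, with filters set on the library where they are higher. Their ratios and intervals therefore describe the choice and are no support for a difference. Thbs2, a matrix glycoprotein gene of stromal cells, had 185 cKO UMIs, 83.8% of them in 1 cell, and 1 without the mixed barcodes. Leaving those out took the cKO UMIs of Selenop from 33 to 6, and the ratio of Sod2 from 2.86 to 2.24 (0.832 to 6.99). Dbi, which binds acyl-CoA esters, had 3 UMIs in control and 48 in cKO, a ratio of 9.72 (3.13 to 48.8). It had 1 and 16 UMIs with the mixed barcodes left out, a ratio of 13.4 (2.09 to 564). Thinned to 1000 UMIs, 1 of 43 control and 7 of 39 cKO cells had a UMI of Dbi. Slc7a11, the cystine transporter, stood at 150 and 478 CPM, a ratio of 3.19 (1.70 to 6.50), or 4.12 without the mixed barcodes. Barcodes of at most 100 UMIs held Slc7a11 at 148 CPM in control and 234 in cKO. All other cells held it at 255 and 363 CPM, and macrophages at 1017 and 1201 CPM. Thinned, 8 of 43 and 7 of 39 cells had a UMI of it. Mtss1, an actin and membrane binding protein, stood at 87.3 and 296 CPM in 7 and 17 cells, a ratio of 3.38, or 4.34. It had 7 and 39 UMIs, and with cells thinned to 1000 UMIs its log2 ratio was 0.59, with a UMI in 5 of 43 and 6 of 39 cells. Atxn7, of a histone acetyltransferase complex, had 1 UMI in control and 22 in 15 cKO cells. Some of the 10 had under 50 UMIs in all and so lie outside the counts above.

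**Figure D5:**
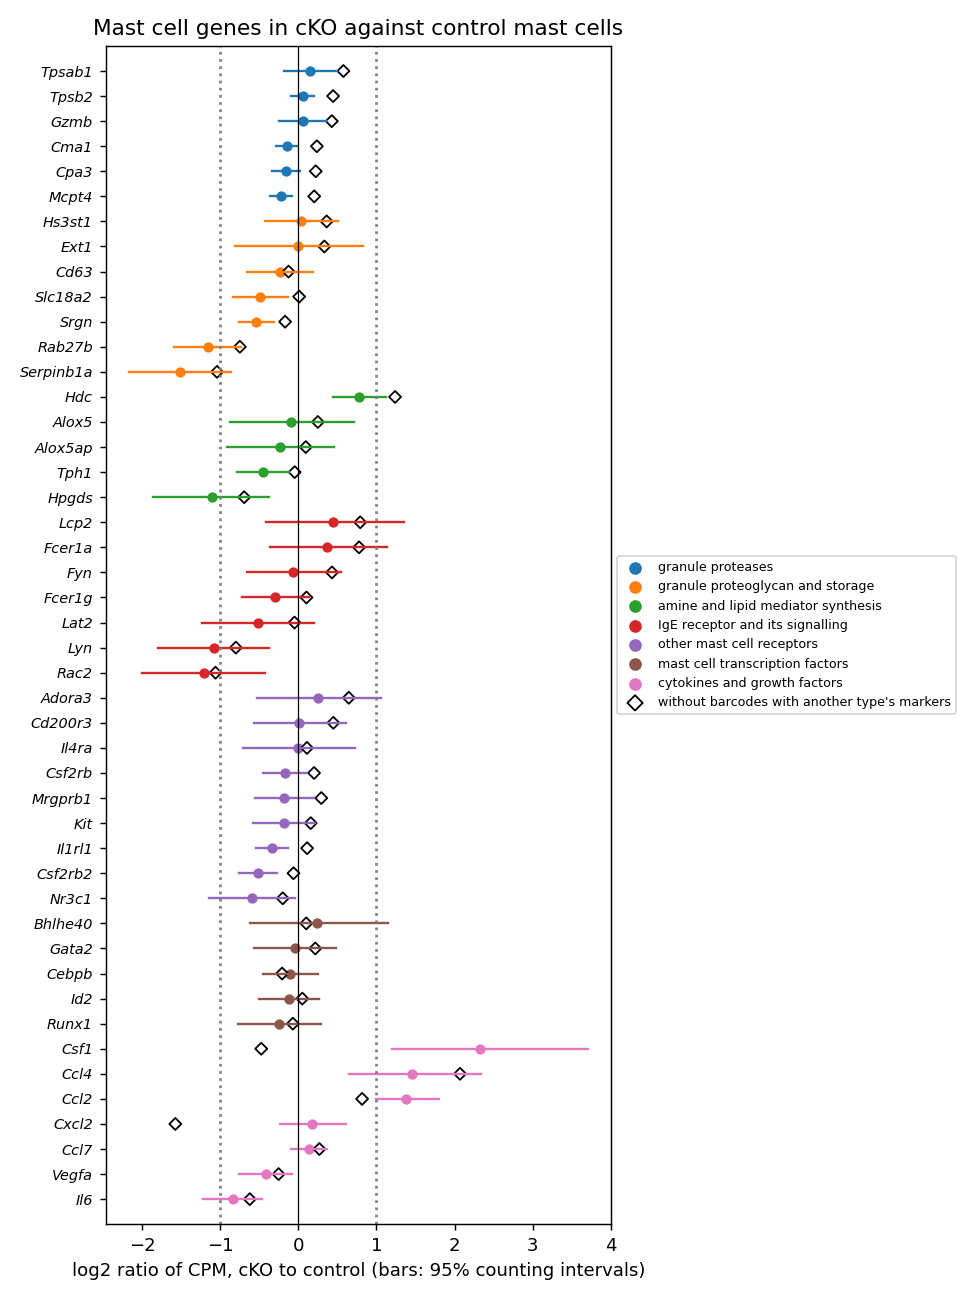
Log2 ratio of CPM in cKO to control mast cells (points, with 95% counting intervals) for compared genes of 7 mast cell lists, and the ratio without the mixed barcodes (diamonds); dotted lines mark 2-fold. Mcpt2, at 0 in control, is not drawn, the proteases drawn lie within 2-fold, and 18 of the 46 genes drawn change sign without the mixed barcodes, of which Csf1 and Cxcl2 are past 2-fold in either value.

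Stress and immediate early genes, which rise during tissue dissociation, were compared because digestion took hours. Of 24 listed, 10 could be compared and none was past 2-fold in either direction, against 8.13% higher and 4.13% lower over all genes. Their median log2 ratio was 0.34. Without the mixed barcodes 1 was higher and 1 lower of 9, against 2.5% and 2.69% of all genes. These were Junb, at a ratio of 1.67 and 2.03 without them, and Jun, at 0.590 and 0.456. Ier3 had a ratio of 1.48, while Hspa8 had 0.763. Among genes with too few UMIs to compare, Hspa1a had 28 and 2 UMIs and Hspa1b 41 and 6. In other cells Hspa1a stood at 344 and 432 CPM and Hspa1b at 711 and 734 CPM. Cell cycle genes and planar cell polarity genes gave none that could be compared, with list sums of 19 and 38 and of 3 and 18 UMIs. Of 12 antigen presentation genes 4 could be compared, and 0 were past 2-fold in either direction, against 8.13% higher and 4.13% lower over all genes.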

How the data were processed

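The data were 10x Genomics 3-prime single-cell RNA libraries of whole uteri, 1 per group, digested with collagenase for 5 hours at 37°C, cleared of red cells and strained, per the labels' protocols. The authors deposited unfiltered UMI counts per gene and barcode. The file headers name Cell Ranger 4, while the submitters' processing notes name Cell Ranger 6.1.1 and build mm10. The annotation release is not given in the sources used here. Gene identifiers were located in GENCODE M21 on GRCm38 (32158 of 32285 found).

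From these counts, mast cells were picked by the rule given above, UMIs were summed per library, and CPM were computed from the sums. Sums have exact Poisson intervals, shares Clopper-Pearson intervals and ratios exact conditional binomial intervals, all at 95%. No test across groups was possible with 1 library each. A gene was compared with at least 50 UMIs in the mast cells of both libraries together. A gene at 0 was given a limit of 3 counts. No doublet caller was run, and barcodes with another cell type's markers were set apart as mixed. Named genes were the 12 gene lists, the 10 genes on each side whose interval for the ratio lay farthest from 1 among genes with at least 20 UMIs in at least 5 cells of the higher library and at least 2 times its free RNA level (barcodes of at most 100 UMIs), and the 20 with the highest ratio to other cells among genes outside the rule. Mitochondrial, ribosomal protein and predicted genes were left out of the last 2 sets. The mast cell rule and the lists were chosen with earlier results of these data known. The code for ratios and their intervals was tested on simulated data. Alternatives covered the gene, mitochondrial and protease limits, the mixed barcodes, weighting, thinning, free RNA, filters and scaling. Python 3.11.15, numpy 2.4.6, scipy 1.17.1, pandas 2.3.3 and Biopython 1.88 were used.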

Additional observations from a re-analysis of the deposited data

Results flagged for a closer look

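Barcodes under 500 detected genes, which the comparisons above leave out, also held mast cell transcripts. In control, 68 such barcodes met the marker part of the mast cell rule, and in cKO 33 did. They were set apart as a signal in data outside the main measurement, and whether they were cells was not tested.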

How the results depend on the processing

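The cKO to control share of mast cells had a log2 ratio of -0.70. It turned to 0.80 with at least 1000 detected genes and was -1.43 among mast cells and other barcodes with a Ptprc UMI, and -1.52 for mast cells with a Ptprc UMI among all barcodes with one, which was added after seeing the data. Under the other 6 settings for the share the direction was kept, and its interval reached past 0 at 10 protease UMIs and with thinning to 1000 UMIs. The 59 genes at least 2-fold higher became 13 without the mixed barcodes, 10 with thinning, 26 without the deepest mast cell of each library, 259 at 20 UMIs, 9 at 100 UMIs and 3761 with no filter. The 30 at least 2-fold lower became 14, 9, 17, 95, 9 and 1553 under these settings, and 14 with cells weighted equally. The 111 genes at least 4-fold over other cells became 52 with at least 1000 detected genes, 66 with thinning, 171 at 20 UMIs, 64 at 100 UMIs and 284 with no filter. Of 880 values for 80 genes under 11 settings, 754 stayed within the interval of the reported ratio. Of the rest, 2 turned from past 2-fold to the other sign, and in all 101 values had the other sign. The 2 were the log2 ratio of Csf1, 2.24 and -0.46 without the mixed barcodes, and of Ccl4, 1.42 and -0.15 with thinning; the cause was not tested. No replicate could be left out. No paired analysis was possible because each group was 1 pooled library. At these depths and by the limit of 3 counts, a gene at 0 in mast cells may lie at up to 37.4 CPM in control and 22.7 CPM in cKO.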
